A study of Mus musculus with 24 samples.

Results

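Polycomb genes were followed from the mature oocyte to the 2-cell embryo: *Ezh1*, *Ezh2*, *Eed*, *Suz12* and *Jarid2* of Polycomb repressive complex 2 (PRC2), *Rnf2*, *Ring1* and *Bmi1* of Polycomb repressive complex 1 (PRC1), and the H3K27 demethylases *Kdm6a* and *Kdm6b*. The members were a fixed list of symbols matched to Ensembl gene identifiers, and 10 of the 55471 annotated genes belong to it. All mice were wild-type B6D2F1 (C57BL/6J x DBA/2N), with females of 8 weeks. SLIM-seq, a low-input immunoprecipitation (IP) of RNA with an antibody against N6-methyladenosine (m6A), was done on MII oocytes of superovulated females, on late 1-cell (L1C) embryos and on late 2-cell (L2C) embryos from matings with B6D2F1 males, with 3 IP libraries and 3 input libraries (total RNA without IP) at each stage. A separate experiment targeted *Ythdc1*, which encodes the nuclear m6A reader. Zygotes received Cas13d mRNA together with 3 *Ythdc1* crRNAs (*Ythdc1* KD) or Cas13d mRNA alone (Ctrl, labelled NC), and 3 Smart-seq2 libraries of each were made from L2C embryos. Ctrl embryos therefore carried Cas13d but no crRNA at all. RNA was not fragmented before the IP, so that enrichment belongs to a whole transcript and not to a site in it. By the study's methods, libraries followed a protocol based on Smart-seq2 with an anchored oligo-dT primer, so that RNA with a poly(A) tail was read. The labels do not say which samples came from separate animals or collections, and p-values measure the spread between these samples only.

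Polycomb proteins hold developmental genes silent. PRC2 methylates lysine 27 of histone H3 through the alternative catalytic subunits EZH1 and EZH2, needs the core subunits EED and SUZ12, and is steered by accessory subunits such as JARID2. PRC1 ubiquitinates histone H2A (H2AK119) through the E3 ligases RING1B (encoded by *Rnf2*) or RING1A (*Ring1*), each paired with a PCGF protein such as BMI1. UTX (*Kdm6a*) and JMJD3 (*Kdm6b*) remove methyl groups from H3K27. In oocytes and early embryos, H3K27me3 inherited from the egg keeps the maternal allele of a set of genes silent, which is known as non-canonical imprinting. The oocyte carries most of the RNA of these complexes into the zygote, and transcription from the embryo's own genome starts in earnest at the 2-cell stage.

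All positions are on GRCm38. *Ezh1* (ENSMUSG00000006920) lies at chr11:101191115-101226463 on the minus strand, *Ezh2* (ENSMUSG00000029687) at chr6:47530139-47595341 (minus), *Eed* (ENSMUSG00000030619) at chr7:89954654-89980983 (minus), *Suz12* (ENSMUSG00000017548) at chr11:79993106-80034123 (plus) and *Jarid2* (ENSMUSG00000038518) at chr13:44729474-44921643 (plus). *Rnf2* (ENSMUSG00000026484) lies at chr1:151458004-151500955 (minus), *Ring1* (ENSMUSG00000024325) at chr17:34020792-34024680 (minus), *Bmi1* (ENSMUSG00000026739) at chr2:18677018-18686629 (plus), *Kdm6a* (ENSMUSG00000037369) at chrX:18162575-18279936 (plus) and *Kdm6b* (ENSMUSG00000018476) at chr11:69398508-69413675 (minus). Their spans run from 3889 bp for *Ring1* to 192170 bp for *Jarid2*. Exons fill 83.4% of the span of *Ring1* but only 5.06% of that of *Jarid2*. This matters because the SLIM-seq counts were assigned to whole gene spans, introns included, so that input levels compare 1 gene between stages and not different genes.

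The m6A writer prefers short forms such as GGACT, so the GGACT nearest the end of the coding sequence is shown for the genes whose enrichment or depletion in the IP the results turn on. Each window is written 5′ to 3′ on the gene's own strand from the longest coding transcript of GENCODE M21, with the motif in capitals. *Suz12* has no GGACT in that transcript, and its nearest GAACT is printed in its place. The sequences mark motif matches and no measured m6A site.
Suz12 (3′ UTR, chr11:80032179-80032207, plus): caaaaactctgaGAACTtgccccatgttt
Ezh2 (coding, exon 10 of 20, chr6:47545731-47545759, minus): acagagaagcagGGACTgaaactggggga
Bmi1 (over the stop codon, exon 10 of 10, chr2:18684469-18684497, plus): ttcatctggttaGGACTgttaaggaaaag
Ezh1 (coding, exon 16 of 21, chr11:101195557-101195585, minus): ctcagagcactgGGACTgtaaggtggtgt
Jarid2 (coding, exon 14 of 18, chr13:44913682-44913710, plus): tcaaggtccacaGGACTgtacagcagagt
Kdm6a (3′ UTR, exon 29 of 29, chrX:18278820-18278848, plus): gctcctatgccaGGACTctcgtaaagcta
Kdm6b (coding, exon 19 of 23, chr11:69401045-69401073, minus): ggattaatgcagGGACTgtacattgggtg

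The number of GGACT matches on the transcript strand ran from 0 in *Suz12* to 7 in *Jarid2*. Among the longest coding transcripts of 21901 genes, 87.6% held at least 1 match and the median density was 1.01 per kb. *Jarid2* (1.17 per kb) and *Bmi1* (1.11 per kb) lay above that median, and the other 8 members lay below it. In *Bmi1* the motif starts on the last base of the stop codon, and 3 of its 4 matches lie within 500 bases of it. A match within that distance was found in 5 of the 10 members and in 60.7% of all transcripts. When the form GGACA was counted together with the form AGACT, the form GAACT and the form GGACT itself, a set chosen after the absence of GGACT from *Suz12* had been seen, *Suz12* had 9 matches (2.06 per kb) against a median of 4.69 per kb over all transcripts. *Rnf2* had the highest density of these forms among the members, with 7.19 per kb.

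Exonic counts of the Ctrl embryos allowed levels to be compared between genes, in CPM (counts relative to the total of the library) per kb of exon. The length is that of all annotated exons of a gene, 6678 bp for *Ezh2*, 3828 bp for *Eed* and 4127 bp for *Rnf2*. Their longest coding transcripts have 2787, 2067 and 3201 bases, so that ratios between genes and the order of close values depend on the length used. *Bmi1* was the most abundant member at L2C, with 244, 235 and 201 CPM per kb in the 3 Ctrl libraries. *Suz12* followed with 213, 205 and 185 CPM per kb, and the ranges of these 2 genes overlapped. Their means were 4.72 times that of *Rnf2* and 5.04 times that of *Eed*, partners in the same complexes. The place of *Bmi1* depends on reads it shares with a processed copy, described with its input levels.

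*Rnf2* had 48.3, 49.5 and 46.0 CPM per kb, above every Ctrl value of *Ezh2* and *Eed* on this scale, an order that depends on the length used. The mean of *Ezh2* was 40.0 ± 3.03 CPM per kb (SD, n = 3) and that of *Eed* 39.8 ± 3.63 (SD, n = 3), and the 2 genes could not be separated on this scale. *Kdm6b* came next with 25.2 ± 1.67 CPM per kb (SD, n = 3), 3.55 times the level of its paralogue *Kdm6a*. *Kdm6a* (7.11 ± 0.392, SD, n = 3), *Jarid2* (5.78 ± 0.794, SD, n = 3) and *Ezh1* (4.38 ± 0.461, SD, n = 3) had the lowest levels in CPM per kb among the detected members, and their ranges did not overlap. On this scale *Ezh2* transcripts thus had 9.12 times the exonic density of *Ezh1* transcripts at this stage.

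**Figure D1:**
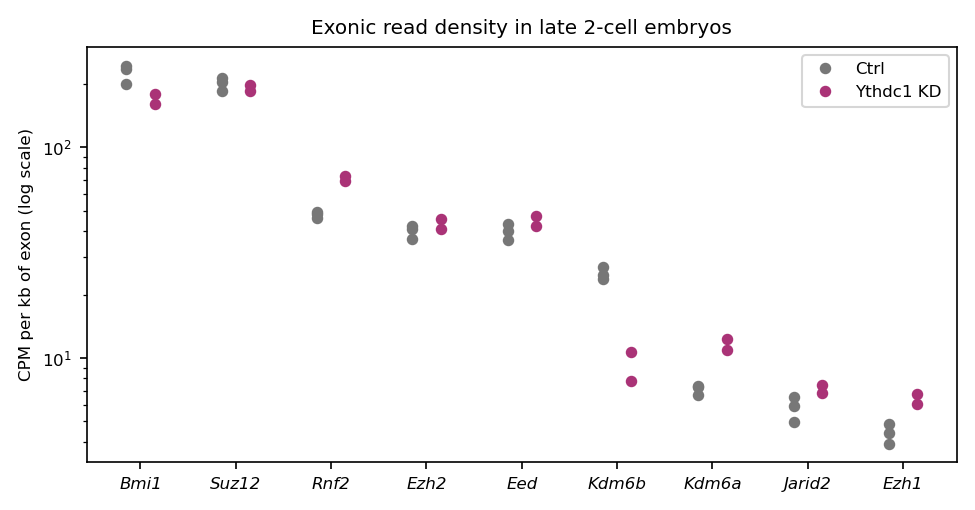
CPM per kb of exon (log axis) of 9 members in L2C embryos, ordered by the Ctrl mean, with a point for each of 3 Ctrl and 2 *Ythdc1* KD libraries. *Bmi1* and *Suz12* sit near 200 CPM per kb in Ctrl, and *Ezh1* has the lowest values, between 3.92 and 4.85. *Ring1*, with 0 reads in the Ctrl libraries, is not drawn.

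*Ring1* was close to undetected. Its estimated counts in the inputs were 3, 0 and 3 in MII oocytes, 3, 0 and 0 in L1C embryos, and 9, 1 and 5 in L2C embryos, in libraries of 18557483 to 38195381 counts. The 3 Ctrl libraries held no read on its exons, which allows up to 0.207, 0.232 and 0.345 CPM respectively (3 counts of each total), and the 2 KD libraries held 3 and 2. These limits cover counting error only. *Ring1* failed the filter on low counts in each edgeR comparison reported below, so that 9 of the 10 members were tested there unless stated otherwise. It did enter the DESeq2 fits, the fits without that filter, some of the IP fits with 1 library left out, and the paralogue ratio that follows. The log2 ratio of *Rnf2* to *Ring1*, with 0.1 CPM added to each, averaged 10.2 ± 0.917 in MII oocytes, 10.5 ± 0.584 in L1C embryos and 9.31 ± 0.489 in L2C embryos (SD, n = 3 each), and rests on these few *Ring1* counts.

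Most members had a lower share of the input RNA in the 2-cell embryo than in the oocyte. Of the 9 tested, 7 fell and 1, *Suz12*, rose from MII to L2C (edgeR quasi-likelihood test, Benjamini-Hochberg adjusted p under 0.05), where 37.1% of the 19903 genes tested fell and 47.5% rose. The median log2 change was -1.38 over the members and 0.40 over all genes tested. From MII to L1C 4 members fell and 0 rose (24.3% of all genes fell and 31.9% rose), and from L1C to L2C 6 fell and 1 rose (38.8% and 44.1%). All of these are shares of the sequenced RNA. A change in the total RNA per cell, fewer cells of a type, a change in poly(A) tails and less RNA of a gene per cell cannot be told apart.

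**Figure D2:**
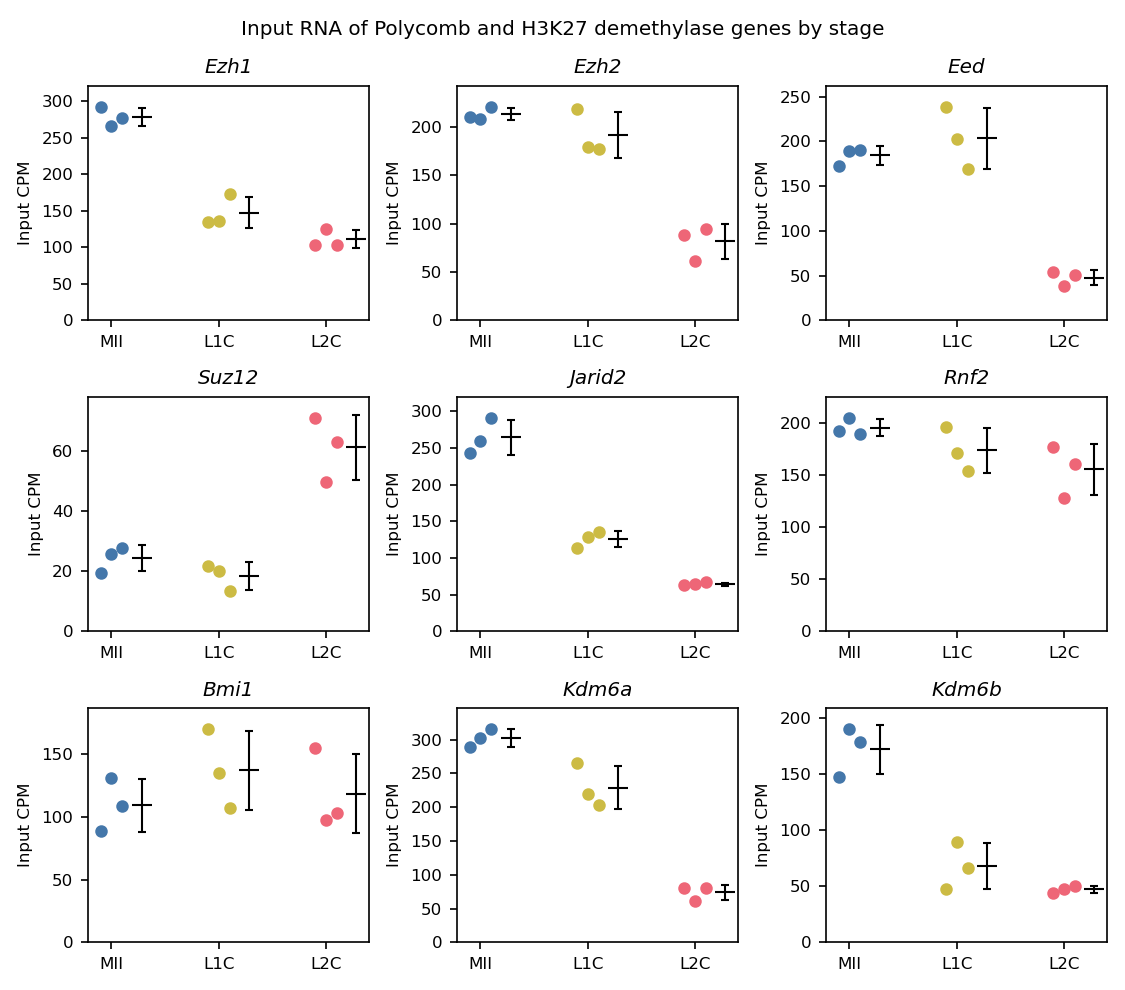
Input CPM (scaled over the 9 inputs, axes from 0) of 9 members at MII, L1C and L2C, with a point for each of 3 libraries and the mean ± SD beside them. *Suz12* is the member whose L2C values, 49.6 to 70.9 CPM, lie above all MII and L1C values, while *Eed*, *Ezh2*, *Jarid2*, *Ezh1*, *Kdm6a* and *Kdm6b* end below their MII values.

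Both catalytic subunits of PRC2 declined, but at different steps. *Ezh1* had 291, 266 and 277 CPM in the MII inputs, 135, 135 and 172 at L1C and 103, 125 and 104 at L2C. Its stages did not overlap, and the larger loss came at the first step (log2 change -0.91 ± 0.13 SE, adjusted p = 4.7e-05, edgeR), with a further log2 change of -0.41 ± 0.13 to L2C (adjusted p = 0.0092, edgeR). The second step was not called by DESeq2 (log2 -0.27, adjusted p = 0.089).

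*Ezh2* fell later, between L1C and L2C. Its inputs held 211, 209 and 220 CPM in MII oocytes, 219, 179 and 177 in L1C embryos, and 88.6, 61.5 and 94.6 in L2C embryos. The MII and L1C values overlapped (log2 change -0.15 ± 0.15 SE, adjusted p = 0.42, edgeR), and every L2C value was below them (log2 -1.23 ± 0.15 from L1C, adjusted p = 3.7e-06, edgeR). The log2 ratio of *Ezh2* to *Ezh1* within a library averaged -0.38 ± 0.074 in MII oocytes, 0.38 ± 0.33 in L1C embryos and -0.46 ± 0.49 in L2C embryos (SD, n = 3 each). It was higher in each L1C library than in any MII library (difference 0.76) or L2C library (difference -0.84 to L2C), with p = 0.1 in both exact two-sided permutation tests, the smallest that 3 against 3 can give (0.18 after adjustment over 9 comparisons of paralogue ratios).

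The core subunits moved in opposite directions. *Eed* had 173, 190 and 191 CPM in MII oocytes, 238, 203 and 169 in L1C embryos, and 53.7, 38.4 and 51.2 in L2C embryos. The MII and L1C groups overlapped, and the fall to L2C was the steepest of all members (log2 change from L1C -2.09 ± 0.16 SE, adjusted p = 1.3e-08, edgeR). *Suz12* had 19.5, 25.7 and 27.8 CPM in MII oocytes, 21.9, 20.2 and 13.3 in L1C embryos, and 70.9, 49.6 and 63.2 in L2C embryos. It thus did not fall detectably after fertilization (log2 -0.39 ± 0.20, adjusted p = 0.12, edgeR) and rose 3.31-fold by L2C (log2 1.73 ± 0.20, adjusted p = 2e-06, edgeR). Without the filter on low counts the first step was called as a fall (log2 -0.44, adjusted p = 0.032, edgeR).

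*Jarid2*, the accessory subunit, declined at both steps. Its inputs gave 242, 260 and 290 CPM in MII oocytes, 114, 129 and 135 in L1C embryos, and 62.8, 63.9 and 66.6 in L2C embryos. No values of different stages overlapped, and the changes were -1.07 ± 0.12 and -0.97 ± 0.12 on the log2 scale (SE, adjusted p = 4.3e-06 and 2.8e-06, edgeR).

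Of the PRC1 genes *Rnf2* fell slightly over the whole interval and *Bmi1* was not called at any step. *Rnf2* held 193, 205 and 189 CPM in MII oocytes, 196, 171 and 154 in L1C embryos, and 177, 128 and 161 in L2C embryos. The MII and L2C groups alone were separate, and the log2 change between them, -0.33 ± 0.14 (adjusted p = 0.037, edgeR), was not called by DESeq2 (log2 -0.25, adjusted p = 0.13), with scaling to library size alone (-0.18, adjusted p = 0.23), or without MII replicate 1, MII replicate 2, L2C replicate 2 or L2C replicate 3 (adjusted p from 0.053 to 0.14). The L1C to L2C step was called only with TMM factors of all 18 libraries (log2 -0.40, adjusted p = 0.017, edgeR).

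*Bmi1* values overlapped at all stages. The inputs held 88.6, 131 and 109 CPM in MII oocytes, 170, 135 and 107 in L1C embryos, and 155, 97.6 and 103 in L2C embryos, with no change past the threshold in the edgeR fit of all inputs. Without L2C replicate 1 the fall from L1C was called (log2 -0.46, adjusted p = 0.046, edgeR). These counts are uncertain, because a processed copy of *Bmi1*, *Gm5946* on chromosome X (chrX:150220716-150226021), aligns to 2890 of its 3594 transcript bases at 95.7% identity. In the inputs the copy drew a mean of 3709 counts at MII, 6528 at L1C and 3533 at L2C, against 2205, 2976 and 3576 for *Bmi1* itself. Of the 31-base words of the *Bmi1* transcript 30.6% also occur in the copy, and of those of the whole *Bmi1* span, to which the SLIM-seq counts were assigned, 10.8%.

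The stretch of 30 bases of the *Bmi1* coding sequence with the most differences from the copy is printed to show how alike they are, with the 4 differing bases in capitals.
Bmi1 (chr2:18683374-18683403, plus): atcGgaaagtaaataaaGagaagcctaAgG
Gm5946 (chrX:150222877-150222906, minus): atcAgaaagtaaataaaAagaagcctaTgA

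With the counts of *Bmi1* and *Gm5946* summed, an alternative chosen after the copy was found, the sum rose from MII to L1C (log2 0.59 ± 0.18 SE, adjusted p = 0.012, edgeR) and fell from L1C to L2C (-0.90 ± 0.18, adjusted p = 0.00034, edgeR).

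The demethylases both declined, *Kdm6b* mostly between MII and L1C and *Kdm6a* mostly after L1C. *Kdm6a* had 289, 302 and 315 CPM in MII oocytes, 265, 219 and 203 in L1C embryos, and 81.1, 61.5 and 79.8 in L2C embryos. All stages were separate, but the first step was small (log2 -0.40 ± 0.14 SE, adjusted p = 0.024, edgeR) and was lost without MII replicate 2 or 3 or L1C replicate 2 or 3 (adjusted p from 0.058 to 0.085), while the second was -1.63 ± 0.14 (adjusted p = 6.5e-08, edgeR). *Kdm6b* had 147, 190 and 179 CPM in MII oocytes, 47.9, 89.1 and 66.7 in L1C embryos, and 43.8, 47.3 and 50.5 in L2C embryos.

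The fall of *Kdm6b* from MII to L1C was -1.34 ± 0.19 on the log2 scale (adjusted p = 3.6e-05, edgeR). Its L1C and L2C groups overlapped, and the second change (log2 -0.52 ± 0.19, adjusted p = 0.018, edgeR) was not called by DESeq2 (adjusted p = 0.080), without L1C replicate 2 (log2 -0.29, adjusted p = 0.12) or without L2C replicate 1 (adjusted p = 0.056). The log2 ratio of *Kdm6a* to *Kdm6b* averaged 0.82 ± 0.15 in MII oocytes, 1.79 ± 0.61 in L1C embryos and 0.64 ± 0.26 in L2C embryos (SD, n = 3 each), above both other stages in every L1C library (p = 0.1 in each exact permutation test, 0.18 adjusted).

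Other Polycomb subunits did not share 1 direction from MII to L2C. Of 8 tested genes for further PRC2 subunits, a list that holds the accessory subunits and the core histone chaperones *Rbbp4* and *Rbbp7*, 3 rose and 3 fell (47.5% and 37.1% of all genes), with *Aebp2* (log2 1.14) and *Lcor* (0.84) among the first and *Rbbp7* (-2.89) and *Phf1* (-2.35) among the second. Of 9 further genes of canonical PRC1, 2 rose, the chromodomain genes *Cbx7* (3.80) and *Cbx8* (0.301 to 0.599 CPM at MII, 14.1 to 14.7 at L2C), and 6 fell, including the polyhomeotic genes *Phc1* (-3.38) and *Phc3* (-3.10). Variant PRC1 genes split evenly, with 7 rising and 6 falling of 14.

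*Pcgf5*, which encodes an alternative partner of RING1B, rose by a log2 change of 7.19 ± 0.18 SE from MII to L2C, from 1.15 to 1.69 CPM at MII to 191 to 221 CPM at L2C. Its relative *Pcgf3* also rose (log2 3.14), while *Auts2* (-2.53) and *Pcgf1* (-1.79) fell. Among 6 genes for H2AK119 deubiquitinases and their cofactors, 3 rose, including *Asxl2* (2.56) and *Mysm1* (0.88), and 2 fell, *Bap1* (-1.40) and *Asxl3* (-1.62). Of 10 tested genes under non-canonical imprinting, 7 rose and 1 fell. *Slc38a4*, *Xist*, *Tle3* and *Jade1* had at most 0.299 CPM in any MII input, so that they entered the test through later stages and could only be called as rising, and the count that includes them is no result about the list. This holds for *Jade1*, with 0.0 to 0.299 CPM at MII and 75.2 to 103 at L2C, and *Cbx8* was near the limit of the filter at MII as well. *Gab1* rose (log2 4.83) and *Rbms1* fell (-1.31). The named genes other than *Jade1* and *Cbx8* had adjusted p-values of 0.00025 or less in the edgeR test.

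Summed marker genes were checked against the labels. The summed CPM of 10 oocyte genes ran from 12144 to 12976 in MII inputs, from 7378 to 7709 at L1C and from 1037 to 1060 at L2C. Single genes of the list could differ, as *Bmp15*, *Nlrp5* and *Zp2* were higher in each L1C than in each MII input. The sum of 7 genes typical of the 2-cell stage ran from 6.44 to 7.79 at MII, 175 to 194 at L1C and 370 to 500 at L2C. *Duxf3* of that list ran from 79.4 to 116 CPM at L1C and from 6.07 to 6.57 at L2C. Cumulus cell genes summed to at most 65.4 CPM over 10 genes, at MII, and *Ptx3* was at 0 in all inputs. The sperm list summed to at most 3.75 CPM at MII and L1C and to between 55.5 and 73.6 at L2C, where 1 of its 6 genes, *Prm1*, had a mean of at least 1 CPM (54.8 to 72.3, and 0 in each MII and L1C input).

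In the IP, 5 members stood on the same side of the input at all stages, and 4 did not. At MII, 2 members were enriched over input and 4 depleted (edgeR, adjusted p under 0.05), where 17.7% of 21950 genes tested were enriched and 21% depleted. At L1C the counts were 2 and 3 (15.8% and 18.2%), and at L2C 4 and 3 (22% and 22%). *Suz12* and *Ezh2* were enriched, and *Ezh1*, *Jarid2* and *Kdm6a* depleted, at each stage. Scaling to library size alone, in place of TMM, shifts the median log2 IP to input ratio of all genes from 0.00, 0.07 and 0.09 to 0.20, 0.37 and 0.34 at MII, L1C and L2C. On that scale *Kdm6b* was also called enriched at MII (log2 0.68) and L1C (0.85), *Eed* at L1C (0.54) and *Rnf2* at L2C (0.44). The study called transcripts m6A-tagged from DESeq2 output, with further steps for missing p-values and for single replicates. When only its thresholds (log2 ratio above 0, unadjusted p under 0.05 and more than 1 count in each input of the stage) were applied to the edgeR fit, the number of tagged members was 2 in MII oocytes, 3 in L1C embryos and 4 in L2C embryos, beside 19.2%, 18.6% and 23.9% of all genes tested.

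**Figure D3:**
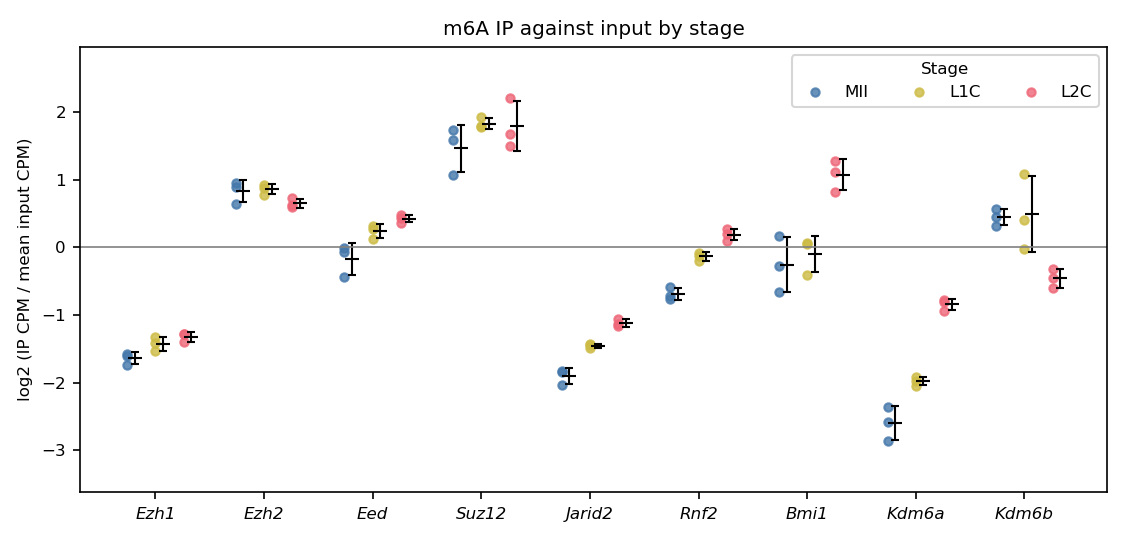
Log2 of each IP library's CPM over the mean input CPM of its stage for 9 members, with a point per IP library and the mean ± SD (n = 3) beside the points. *Suz12* and *Ezh2* stay above 0 and *Ezh1*, *Jarid2* and *Kdm6a* below 0 at all stages, while *Rnf2* and *Bmi1* reach values above 0 and *Kdm6b* values below 0 in every L2C IP library.

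*Suz12* had the highest ratio of all members. Its 3 IP libraries lay at log2 1.58, 1.07 and 1.73 over the mean MII input, at 1.79, 1.92 and 1.77 over the mean L1C input, and at 1.5, 2.2 and 1.68 over the mean L2C input. All 9 were above 0, and the fitted enrichment was 2.80-fold in oocytes (adjusted p = 2e-05), 3.54-fold in L1C embryos (adjusted p = 3.2e-06) and 3.54-fold in L2C embryos (adjusted p = 2.1e-06, edgeR). The difference between L2C and MII, 0.33 ± 0.30 SE on the log2 scale, did not pass the threshold (adjusted p = 0.49, edgeR). The gene that gained input RNA at L2C was therefore enriched before and after that gain.

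*Ezh2* was enriched less strongly, by log2 0.83 ± 0.14 at MII, 0.86 ± 0.14 at L1C and 0.65 ± 0.14 at L2C (SE, adjusted p = 9.9e-05, 9.7e-05 and 0.0011, edgeR). Its paralogue *Ezh1* was depleted in all 9 IP libraries, between -1.74 and -1.28 on the log2 scale. The fitted values for *Ezh1* were -1.64 ± 0.11, -1.43 ± 0.11 and -1.32 ± 0.11 (SE) at MII, L1C and L2C, each with an adjusted p of 4.6e-08 or less (edgeR). The catalytic subunits of PRC2 thus stood on opposite sides of the input at every stage.

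*Eed* was close to the input at MII and L1C. Its log2 ratios in the IP libraries were -0.07, -0.44 and -0.01 for oocytes, 0.31, 0.28 and 0.12 for L1C embryos, and 0.42, 0.47 and 0.37 for L2C embryos. Only L2C was called (log2 0.42 ± 0.15 SE, adjusted p = 0.027, edgeR), and that call was lost without L2C input replicate 2 (log2 0.27, adjusted p = 0.17), L2C IP replicate 1 (adjusted p = 0.060) or L2C IP replicate 2 (adjusted p = 0.068).

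*Jarid2* was depleted in each IP library, with a ratio that was less negative at each later stage. The fitted log2 values were -1.90 ± 0.10 at MII, -1.46 ± 0.10 at L1C and -1.12 ± 0.10 at L2C (SE, adjusted p of 8.1e-08 or less, edgeR). The gain of 0.78 ± 0.14 from MII to L2C was itself significant (adjusted p = 0.00058, edgeR interaction term), so that depletion weakened from 3.73-fold to 2.17-fold.

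*Kdm6a* had the largest stage difference of all members. Its IP libraries lay at -2.58, -2.86 and -2.36 in MII oocytes, -2.04, -1.98 and -1.92 in L1C embryos, and -0.94, -0.81 and -0.78 in L2C embryos on the log2 scale. No values of different stages overlapped, and depletion shrank from 6.00-fold to 1.79-fold. The gain in the ratio from L1C to L2C was 1.14 ± 0.20 SE (adjusted p = 0.0014) and from MII to L2C 1.74 ± 0.20 (adjusted p = 5e-06, edgeR interaction terms), while that from MII to L1C, 0.61 ± 0.19, was not called (adjusted p = 0.068). DESeq2 did call the MII to L1C step (log2 0.58, adjusted p = 0.043). Over the same interval the input of *Kdm6a* fell 4.07-fold, so that a lower level and a higher IP to input ratio came together.

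*Rnf2* went from depleted to level with the input. The IP libraries gave -0.76, -0.71 and -0.59 in MII oocytes, -0.20, -0.08 and -0.12 in L1C embryos, and 0.20, 0.10 and 0.26 in L2C embryos. The stages did not overlap, and the ratio rose by 0.88 ± 0.17 SE from MII to L2C (adjusted p = 0.0013, edgeR interaction term) while its input changed by -0.33 on the log2 scale. At L2C the ratio itself, 0.19 ± 0.12, was not past the threshold (adjusted p = 0.22, edgeR) except with scaling to library size alone.

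*Bmi1* became enriched at L2C. Its IP libraries spread from -0.66 to 0.16 at MII and from -0.41 to 0.07 at L1C, and lay at 0.82, 1.28 and 1.12 over the mean L2C input. The fitted L2C enrichment was 2.12-fold (log2 1.09 ± 0.23 SE, adjusted p = 0.00081, edgeR), a gain of 1.30 ± 0.32 over MII (adjusted p = 0.0067) and of 1.17 ± 0.32 over L1C (adjusted p = 0.028, edgeR interaction terms). The gain over L1C was not called by edgeR when these stages alone were fitted (log2 0.99, adjusted p = 0.066), nor without L1C input replicate 1, L1C IP replicate 1, L2C input replicates 2 or 3 or L2C IP replicates 2 or 3 (adjusted p from 0.057 to 0.085). Summed with *Gm5946*, the L2C enrichment was log2 0.69 ± 0.18 (adjusted p = 0.0047) and the gain over L1C 0.86 ± 0.26 (adjusted p = 0.041, edgeR).

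*Kdm6b* moved the other way, from above the input to below it. The ratios were 0.32, 0.56 and 0.45 in MII oocytes, -0.03, 0.40 and 1.09 in L1C embryos, and -0.32, -0.60 and -0.46 in L2C embryos on the log2 scale. None of the stages passed the threshold alone in the main fit (adjusted p = 0.12, 0.057 and 0.11, edgeR). Without the filter on low counts *Kdm6b* was called enriched at MII and L1C and depleted at L2C (adjusted p = 0.015, 0.0018 and 0.0072, edgeR), DESeq2 called it enriched at L1C (log2 0.59, adjusted p = 0.026), as did edgeR without L1C input replicate 2 or L1C IP replicate 1 (adjusted p = 0.013 and 0.015), and the fit of a stage on its own called MII and L2C (adjusted p = 0.0031 and 0.0054). The ratio fell by 1.01 from L1C to L2C (adjusted p = 0.049) and by 0.90 from MII to L2C (adjusted p = 0.049, edgeR interaction terms). These calls are at the edge. Leaving out any of the 12 libraries of the MII to L2C contrast ended the second (adjusted p from 0.056 to 0.11, edgeR), and the first was kept only without L1C input replicate 2 or L1C IP replicate 1 (adjusted p up to 0.15 without each of the other 10 libraries). Without L1C IP replicate 3 the value itself shrank to -0.66 (adjusted p = 0.15, edgeR).

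In counts, the ratio to input rose for 2 members and fell for 1 from L1C to L2C, where 5% and 4.47% of all genes did. From MII to L2C it rose for 4 and fell for 1 (11.1% and 9.21%), and from MII to L1C 0 rose and 0 fell (3.13% and 4.21%) in edgeR, with 3 members at an unadjusted p under 0.05 and 3 called by DESeq2. The 3 intervals share libraries, and the values of each are given side by side without comparing the intervals. The median gain from MII to L2C was 0.58 over the members and 0.06 over all genes tested.

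The depleted members include those with the longest spans, *Jarid2* and *Kdm6a*. Across 16163 protein-coding genes the Spearman correlation of span with the log2 IP to input ratio came to -0.061 in oocytes, -0.087 in L1C embryos and 0.16 in L2C embryos, over genes of the same libraries, which are not independent replicates. The decile of spans that holds *Jarid2* had a median ratio of -0.02 at MII and 0.33 at L2C, and the decile that holds *Kdm6a* -0.10 and 0.17. *Ezh1*, *Suz12* and *Rnf2* fall in the same decile of span and had fitted log2 ratios of -1.64, 1.49 and -0.69 at MII. The exonic share of the span correlated at -0.043, -0.036 and -0.24 with the ratio at the 3 stages, and its part in the stage changes of *Jarid2* and *Kdm6a* was not tested.

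The wider lists showed no common side. At MII, where 17.7% of all genes tested were enriched and 21% depleted, the further PRC2 genes had 0 enriched and 3 depleted of 8, the canonical PRC1 genes 0 and 4, the variant PRC1 genes 8 and 2, the deubiquitinase genes 3 and 2 and the imprinted genes 2 and 0, and at L1C, where 15.8% and 18.2% of all genes were, these counts were 1 and 3, 1 and 4, 6 and 3, 2 and 2, and 0 and 1. These counts depend on the scaling, as does the background. With library size alone 26.2% of all genes were enriched and 16.2% depleted in MII oocytes, 29% and 11.9% in L1C embryos, and 33.3% and 16% in L2C embryos. On that scale the further PRC2 genes had 2 enriched and 2 depleted at MII and 3 and 3 at L1C, the canonical PRC1 genes 3 and 2, then 3 and 3, the variant PRC1 genes 8 and 1, then 9 and 2, the deubiquitinase genes 4 and 2, then 2 and 2, and the imprinted genes 3 and 0, then 2 and 0. At L2C, library size alone gave 4 and 1, 2 and 4, 7 and 4, 3 and 1, and 4 and 3 for the same lists. At L2C after TMM scaling, where 22% of all genes were enriched and 22% depleted, 2 of 8 tested further PRC2 genes were enriched, *Mtf2* (log2 0.82) and *Rbbp4* (0.50), and 2 depleted, *Phf1* (-2.11) and *Phf19* (-0.80). Of 11 canonical PRC1 genes 2 were enriched, *Phc2* (0.53) and *Pcgf2*, and 5 depleted, among them the chromodomain genes *Cbx2* (-1.68) and *Cbx7* (-1.17). *Pcgf2* was at 0 in all L2C inputs and at 0.216, 0.538 and 0.612 CPM in the IP, so that its call rests on the IP libraries alone. Variant PRC1 genes had 5 enriched, including *Pcgf5* (0.65) and *Yaf2* (0.79), and 4 depleted, including *L3mbtl2* (-2.40) and *Pcgf3* (-0.98), of 14. The 6 deubiquitinase genes gave 2 enriched, *Usp16* (0.82) and *Asxl3* (1.46), and 2 depleted, *Bap1* (-2.24) and *Asxl1* (-0.36). Of 11 genes under non-canonical imprinting 0 were enriched at L2C and 3 depleted, including *Jade1* (-1.89) and *Gab1* (-1.28). The named genes were called by the edgeR test with adjusted p-values of 0.021 or less.

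*Ythdc1* itself checked the knockdown. In CPM of the merged KD table, which is scaled to the genes it holds, its mean was 526 ± 11.6 in KD and 1054 ± 55.1 in Ctrl libraries (SD, n = 3 each), a log2 change of -1.0 ± 0.062 SE (adjusted p = 1.3e-10, edgeR). The crRNAs used, as listed by the study, are printed to show what was targeted, and all bind the coding sequence of *Ythdc1* on chromosome 5.
Guide 1 (exon 4, chr5:86817026-86817048): cctcattctcagtgttgttgccc
Guide 2 (exon 2, chr5:86815667-86815689): aattcatcatcctgttctggtac
Guide 3 (across an exon junction): ctctcagaaccatctggtgtagg
The longest run of a guide that is complementary to the longest coding transcript of any member was 12 of 23 bases, between guide 2 and *Eed*. For guide 1 it was 10 bases, in *Kdm6b* and in *Eed*, and for guide 3 it was 9 bases, in *Suz12*, *Ezh1* and *Bmi1*. The part of such matches in the KD values was not tested.

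The merged KD table ends on chromosome 7 and holds 5 members, *Ezh2*, *Eed*, *Rnf2*, *Bmi1* and *Kdm6a*, in 3 KD and 3 Ctrl libraries. The other members were measured over the whole annotation in 2 KD and 3 Ctrl libraries. Among those 5 members 2 were higher in KD and 1 was lower (33.5% and 37.4% of 7433 genes), and over the whole annotation 4 of the 9 tested were higher and 2 lower (30.5% and 36.4% of 17074 genes). Against these backgrounds the counts are no result particular to the members. The median log2 change was 0.16 over the 9 members and -0.09 over all genes of the whole annotation. Scaling to library size alone moves the median of all genes in the merged table from -0.06 to -0.19.

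**Figure D4:**
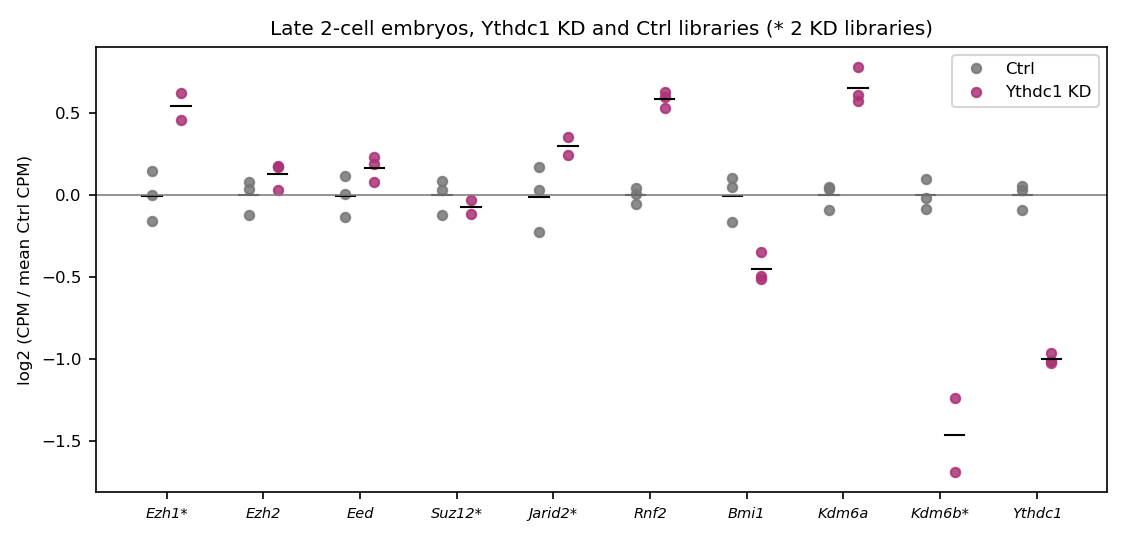
Log2 of each library's CPM over the mean Ctrl CPM in L2C embryos for 9 members and *Ythdc1*, with a point per library and a bar at the mean. Genes with an asterisk have 2 KD libraries, the others 3. *Rnf2*, *Kdm6a*, *Ezh1* and *Jarid2* lie above all Ctrl libraries in KD, and *Bmi1*, *Kdm6b* and *Ythdc1* below them.

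In KD *Ezh2*, *Eed* and *Suz12* did not pass the test, while the other catalytic subunit, *Ezh1*, did. *Ezh2* had 787, 709 and 780 CPM in KD against 733, 712 and 638 in Ctrl (log2 0.13 ± 0.068 SE, adjusted p = 0.10, edgeR). *Eed* had 466, 419 and 451 against 431, 398 and 361, an overlap at the edge (log2 0.17 ± 0.074, adjusted p = 0.053, edgeR). Both were called higher by edgeR without KD replicate 2 (adjusted p = 0.037 and 0.022) and without Ctrl replicate 1 (adjusted p = 0.048 and 0.014).

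*Suz12*, the member most enriched in the IP, had 973 and 914 CPM of the whole annotation in KD and 1051, 1012 and 914 in Ctrl. The groups overlapped, and the log2 change was -0.07 ± 0.074 SE (adjusted p = 0.40, edgeR). It was called lower without Ctrl replicate 3 (log2 -0.14, adjusted p = 0.028, edgeR).

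*Ezh1* and *Jarid2*, both depleted in the IP, were higher in KD. *Ezh1* had 44.9 and 50.3 CPM in KD and 32.6, 29.2 and 36.1 in Ctrl (log2 0.55 ± 0.11 SE, adjusted p = 0.00056, edgeR). *Jarid2* had 66.5 and 71.9 against 63.3, 48.0 and 57.3 (log2 0.30 ± 0.12, adjusted p = 0.031, edgeR). The groups were separate for both genes, but the call for *Jarid2* was lost with scaling to library size alone (adjusted p = 0.10), without KD replicate 2 (adjusted p = 0.13) and without Ctrl replicate 2 (log2 0.19, adjusted p = 0.19, edgeR).

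The PRC1 genes went apart. *Rnf2* had 778, 742 and 795 CPM in KD and 517, 531 and 495 in Ctrl, and every KD library exceeded every Ctrl library by far more than the spread within a group (1.5-fold, log2 0.58 ± 0.062 SE, adjusted p = 1.4e-07, edgeR). Its last exon overlaps *Trmt1l* on the other strand by 158 bp, and reads there cannot be assigned. *Bmi1* had 1834, 1658 and 1641 CPM in KD and 2509, 2422 and 2084 in Ctrl, again with no overlap (log2 -0.45 ± 0.069, adjusted p = 1.2e-05, edgeR).

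The sum of *Bmi1* and *Gm5946* gave nearly the same change (log2 -0.44, adjusted p = 1.1e-05, edgeR). *Commd3*, whose gene ends 786 bp upstream of *Bmi1* on the same strand, fell more, from 133, 126 and 130 CPM in Ctrl to 35.3, 47.2 and 43.1 in KD (log2 -1.63 ± 0.11 SE, adjusted p = 4.1e-10, edgeR).

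The demethylases also went in opposite directions. *Kdm6a* had 266, 237 and 231 CPM in KD and 160, 159 and 146 in Ctrl (1.57-fold higher, log2 0.66 ± 0.082 SE, adjusted p = 1e-06, edgeR). *Kdm6b* had 54.3 and 74.4 CPM of the whole annotation in KD and 165, 173 and 188 in Ctrl. This 2.73-fold fall was the largest change of any member (log2 -1.45 ± 0.12, adjusted p = 6.1e-08, edgeR), and *Kdm6b* was the only member past a log2 change of 1 at an unadjusted p under 0.05, the thresholds of the study for KD genes, applied here to the edgeR fit. They took 14.4% of all genes as higher and 24.5% as lower (14.7% and 22.5% in the merged table, where 0 members passed).

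The KD embryos also differed in stage markers. Over the whole annotation the summed CPM of the 7 genes typical of the 2-cell stage ran from 289 to 326 in the 2 KD libraries and from 999 to 1051 in the 3 Ctrl libraries. The sum of the 10 oocyte genes ran from 883 to 940 in KD and from 1601 to 1660 in Ctrl, and all 10 had a mean of at least 1 CPM in both groups. The members of the list did not all move this way. *Btg4* (475 and 440 CPM in KD, 865 to 921 in Ctrl) and *Bmp15* (156 and 140, against 307 to 338) account for most of the sum, while *Ooep* (34.3 and 41.6, against 15.1 to 17.7) and *Zp3* (102 and 109, against 69.2 to 80.8) were higher in KD. The cumulus list summed to between 8.41 and 11.4 CPM in Ctrl and between 8.55 and 10.3 in KD, with *Inhba*, *Fshr* and *Ptx3* at 0 in all libraries. Most of that sum was *Tnfaip6* (9.42 and 7.80 CPM in KD, 6.19 to 9.29 in Ctrl). The sperm list summed to at most 4.13 CPM in Ctrl and 0.107 in KD. The part of these differences in the changes of *Kdm6b*, *Kdm6a*, *Rnf2*, *Bmi1*, *Ezh1* and *Jarid2* was not tested.

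Of 9 genes under non-canonical imprinting tested over the whole annotation, 6 were higher in KD and 1 lower, where 30.5% and 36.4% of all genes were. The list was not tested as a whole. *Slc38a4*, among the higher, and *Smoc1*, the lower one, were each at 0 in 1 group and could only be tested through the other, so that their direction was fixed by the filter and the counts that include them are no result about the list. *Gab1* was not called, with 6.92 and 4.81 CPM in KD and 7.84, 10.2 and 6.19 in Ctrl. *Sfmbt2*, itself a Polycomb-group gene, had 9.51 and 8.87 CPM in KD and 2.39, 2.29 and 2.54 in Ctrl (log2 1.93 ± 0.24 SE, adjusted p = 4.7e-06, edgeR). The amino acid transporter gene *Slc38a4* had 2.40 and 2.14 CPM in KD and 0 in each Ctrl library, while *Smoc1* had 0 in both KD libraries and 0.75, 1.15 and 1.22 in Ctrl.

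In the other lists *Epop*, at 0 in KD, *E2f6*, near 0 in Ctrl, and *Asxl3*, below 1 CPM in KD, likewise entered the test through the group where they were high, so that their direction was fixed by the filter. Among all genes tested over the whole annotation 30.5% were higher and 36.4% lower. No list was tested as a whole, and the counts that follow are no result about the lists. Of 9 further PRC2 genes 3 were higher, including *Mtf2* (log2 0.45) and *Rbbp7* (0.22), and 2 lower, *Lcor* (-0.39) and *Epop*, which was at 0 in KD and at 0.55, 0.92 and 0.88 CPM in Ctrl. Of 9 canonical PRC1 genes 1 was higher, *Cbx7* (0.30), and 4 lower, including *Cbx2* (-0.83) and *Scmh1* (-1.16). With scaling to library size alone 0 of them were higher and 5 lower. Variant PRC1 genes had 5 higher, including *Mga* (0.81) and *E2f6* (2.68 and 3.85 CPM in KD, 0.34, 0.38 and 0.11 in Ctrl), and 5 lower, including *Pcgf5* (-0.56) and *Bcor* (-0.43), of 14. Of the 6 deubiquitinase genes 3 were higher, including *Asxl2* (0.88) and *Mysm1* (0.54), and 1 lower, *Asxl3* (0.831 and 0.855 CPM in KD, 4.09 to 5.27 in Ctrl). The named genes other than those 3 were called by the edgeR test with adjusted p-values of 0.032 or less.

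Ctrl embryos and L2C inputs are the same stage measured in separate experiments with different counting. The mean CPM of *Suz12* was 992 in Ctrl and 59.0 in L2C inputs, a ratio of 16.8, and that of *Bmi1* 899 and 114 (7.88). For *Ezh1* the order was the other way (32.6 and 106, a ratio of 0.306). These ratios compare exon counts with counts over whole gene spans, and the experiments cannot be told apart from the counting.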

How the data were processed

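Estimated counts and TPM of the SLIM-seq libraries were made by the authors with kallisto, and were used as deposited, the counts rounded to whole numbers. The target names and lengths in the files give each gene as 1 target over its whole span on GRCm38. TPM entered no test. KD and Ctrl libraries hold exon counts per gene, which the authors obtained with Trimmomatic, HISAT2 and featureCounts on GRCm38. The version of kallisto is not given in the sources used here. Depth ranged from 11107421 to 39739950 estimated counts per SLIM-seq library, from 3276715 to 5463868 counts per library in the merged KD table and from 8696476 to 14500548 over the whole annotation. The merged table holds 25739 of 55471 genes, and 1 KD library ends there, so that genes beyond it were compared in 2 KD and 3 Ctrl libraries.

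Counts were tested with edgeR 4.0.16 (R 4.3.3): filterByExpr, TMM factors, glmQLFit and glmQLFTest, with Benjamini-Hochberg adjustment over all genes tested. Stages were compared in the 9 inputs. IP and input were compared in 1 fit of 18 libraries, in which interaction terms compare the ratio between stages. Paralogue ratios were compared by exact two-sided permutation tests. Alternatives were DESeq2 1.42.0, omission of the filter on low counts, scaling to library size without TMM, a replicate block, fits of the compared stages alone, the study's thresholds and leaving out each library. The pipeline was tested on simulated counts. The members and the wider gene lists were chosen with earlier results of these data known. In each wider list, the genes to name were those called with the lowest p-values, up to 2 in each direction. They are printed for MII to L2C, for the IP at L2C and for KD, and the other comparisons are given as counts. *Gab1* in KD was named after its values were seen.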

Additional observations from a re-analysis of the deposited data

Results flagged for a closer look

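The IP to input ratio of 5 members differed between stages by a test of the difference itself, the interaction term of the edgeR fit. From L1C to L2C the log2 ratio of *Kdm6a* rose by 1.14 ± 0.20 SE (adjusted p = 0.0014, edgeR) and that of *Bmi1* by 1.17 ± 0.32 (adjusted p = 0.028, edgeR), while that of *Kdm6b* changed by -1.01 ± 0.31 (adjusted p = 0.049, edgeR). The *Kdm6b* call was lost without any of 10 of the 12 libraries, with a value of -0.66 without L1C IP replicate 3, and the *Bmi1* call without any of 6. With a replicate block the *Bmi1* call was lost as well (adjusted p = 0.087, edgeR). From MII to L2C the ratio rose by 1.74 for *Kdm6a* (adjusted p = 5e-06), by 1.30 for *Bmi1* (adjusted p = 0.0067), by 0.88 for *Rnf2* (adjusted p = 0.0013) and by 0.78 for *Jarid2* (adjusted p = 0.00058, all edgeR), and it changed by -0.90 for *Kdm6b* (adjusted p = 0.049, edgeR), a call lost without any of the 12 libraries. *Kdm6a*, *Rnf2*, *Bmi1* and *Jarid2* had higher ratios in all 3 L2C IP libraries than in any MII IP library, and *Kdm6b* had lower ones. *Ezh1* (L2C -1.41 to -1.28, MII -1.74 to -1.57) and *Eed* (L2C 0.37 to 0.47, MII -0.44 to -0.01), whose differences were not called, were separate as well. This separation comes from the same values as the calls, and its share over all genes was not counted. Over the same interval the inputs of *Kdm6a* and *Jarid2* changed by -2.02 and -2.03 on the log2 scale, and the part of this fall in their ratios was not tested.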

How the results depend on the processing

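No call of a member changed sign. Leaving out 1 library each time gave 723 checks of member genes, of which 667 kept direction and side of the threshold, 43 lost the call and 13 gained it. Other settings gave 683 such checks, of which 629 kept both, 31 lost the call and 23 gained it. Of 2351 checks of other named genes 186 lost the call. The causes were not tested. Where a left-out KD library leaves 1 over the whole annotation, that library is assumed to vary like the Ctrl libraries.

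The counts of members called that moved by more than 1.5 times, or to or from 0, were these. They show how the calls depend on the setting and are no result about the members, because the shares of all genes at these settings are mostly not given. With *Bmi1* and *Gm5946* summed, 1 rose from MII to L1C. With log2 over 1 required as well, 2 fell from MII to L1C, 3 fell from L1C to L2C, enriched members numbered 1 in oocytes, 1 in L1C embryos and 2 in L2C embryos, the ratio rose for 2 and fell for 0 from MII to L2C, and in KD 0 were higher and 0 lower in the merged table and 0 higher and 1 lower over the whole annotation. The study's thresholds for KD genes gave the same counts, 0 and 0, then 0 and 1. Its thresholds for m6A-tagged transcripts, which take enrichment alone, gave 0 depleted at each stage. Scaling to library size alone gave 4 enriched at L1C, 3 with a ratio that rose from MII to L1C and 0 with a ratio that fell from MII to L2C. DESeq2 called 3 with a ratio that rose from MII to L1C (*Jarid2*, *Rnf2* and *Kdm6a*). Fitting the compared stages alone left 1 with a ratio that rose from L1C to L2C. Smaller moves include 4 members fallen from L1C to L2C with DESeq2 and, with library size alone, 3 enriched at MII and 5 at L2C. The log2 ratio of *Rnf2* to *Ring1* changed by -0.54 from L1C to L2C with 1 CPM added.

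Leaving out each library in turn moved members fallen from MII to L1C between 3 and 4, from L1C to L2C between 5 and 6 and from MII to L2C between 6 and 7, those enriched in L1C embryos between 2 and 3 and in L2C embryos between 3 and 4, those whose ratio rose from MII to L1C between 0 and 2, from L1C to L2C between 1 and 2 and from MII to L2C between 4 and 5, and those whose ratio fell from L1C to L2C between 0 and 1 and from MII to L2C to 0. In KD it gave 2 to 4 higher in the merged table, and 3 to 4 higher and 2 to 3 lower over the whole annotation.

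As the study describes it, input and IP RNA came from the same batches, but neither it nor the labels say that equal replicate numbers mark the same batch. The numbers were not taken as pairs, because libraries with the same number did not deviate together (correlations of deviations from the group means between -0.15 and 0.16). With the replicate number as a block, 1 member, *Kdm6a*, kept a rise in its ratio from L1C to L2C and *Bmi1* was not called (log2 1.18, adjusted p = 0.087, edgeR), while *Kdm6b* was called enriched at L1C (log2 0.53, adjusted p = 0.036), *Eed* higher in KD (log2 0.17, adjusted p = 0.045) and *Suz12* lower in KD (log2 -0.13, adjusted p = 0.035, edgeR). The block changed no other call of a member. Depth limits what can be said of *Ring1*, which had at most 9 counts in any input.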
